A study of Saccharomyces cerevisiae with 4 samples.

Results

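The tail of yeast Mediator is represented here by GAL11, PGD1, MED2, SIN4 and RGR1, and its kinase module by SSN2, SSN3, SSN8 and SRB8. These 9 genes were taken as the probes whose identifiers begin with the ORF names YOL051W, YGL025C, YDL005C, YNL236W, YLR071C, YDR443C, YPL042C, YNL025C and YCR081W, in that order. Each gene had 1 probe, so that 9 of the 6210 probes on the arrays were followed, and all 9 had a value on every array. The RefSeq gene table gives the same symbol for each of these ORFs. Expression was compared between the 5A mutant and control cells of Saccharomyces cerevisiae on 4 spotted oligonucleotide arrays. Each array was hybridized with RNA of the 5A mutant (sample label 5A, Cy5 dye) and RNA of the control (sample label WT, Cy3 dye). In both groups the C-terminal domain (CTD) of RPO21, the largest subunit of RNA polymerase II, was supplied through a plasmid shuffle. It carried 5 alanines between its heptad pairs in the 5A mutant and was of WT sequence in the control. Both were grown in rich YPD medium with dextrose and collected at log phase, and the parent strain named in the methods is Z26. The methods do not say after how many growth cycles the mutant cells were taken, nor whether the replicates came from separate cultures, so the p-values given below measure the spread between arrays, which may be technical.

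Each value is a log2 ratio of the 5A mutant over the control, so that a value above 0 stands for more transcript in the mutant. The base and the direction are not written in the deposited table. They were taken from the dyes in the labels and from the numbers of genes that 2-fold cut-offs are stated to set apart in each direction. Read in this way, the table holds 325 higher and 493 lower probes (means of at least 1 or at most -1, with 4 values). The same dye marked the same strain on all 4 arrays, so dye and strain cannot be told apart at any probe. The array medians lay between -0.01 and -0.0034. Arrays 1, 3 and 4 correlated with each other at r of 0.853 or more across probes, and array 2 with the others at 0.691 or less. RPO21 itself was at -5.67 ± 0.75 (SD, n = 4, limma adjusted p = 6.11e-05). The CTD sequence of the mutant was built from synthetic oligonucleotides, and whether the RPO21 probe matches both alleles was not tested. Its ratio is therefore not read as an amount of transcript. Each mean was tested against 0 with limma over the 6157 probes measured on 2 or more arrays, and a probe is called when its Benjamini-Hochberg adjusted p is below 0.05. In this fit 40.5% of all probes were called, 19.8% as higher and 20.7% as lower in the 5A mutant.

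Mediator is the large complex that carries signals from gene-specific regulators to RNA polymerase II, and it contacts the polymerase through the CTD. Its tail is the part that most activators touch. Gal11 (Med15), Pgd1 (Med3) and Med2 form a group that activators bind, Sin4 (Med16) lies beside them, and Rgr1 (Med14) is the long scaffold that joins the tail to the rest. The kinase module binds Mediator reversibly and is known in yeast mainly for repression. In it Ssn3 (Cdk8) is a kinase that phosphorylates the CTD and several activators, Ssn8 is its cyclin C, Srb8 (Med12) is needed for kinase activity, and Ssn2 (Med13) links the module to the core of Mediator.

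All 5 tail genes had a mean above 0, and SIN4 and RGR1 were called as higher. In the kinase module SSN2 and SSN3 were called as lower, whereas SSN8 and SRB8 had means above 0 and were not called. In total 4 of the 9 genes were called (44.4%), close to the 40.5% of all probes, and none of the 9 reached a mean 2-fold ratio, against 14.2% of all probes that were called at 2-fold or more. At an unadjusted limma p below 0.05 there were 6 of the 9, against 50.2% of all probes. The median of the 9 means was 0.29, against -0.0054 over all tested probes, and it was 0.32 for the tail and -0.27 for the kinase module.

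SIN4 had log2 ratios of 0.70, 0.50, 0.85 and 0.67 on arrays 1 to 4. Every array thus showed more SIN4 transcript in the 5A mutant, with the lowest value on array 2 and the highest on array 3. The mean was 0.68 ± 0.14 (SD, n = 4, limma adjusted p = 0.00659), which stands for a ratio of 1.60 with a 95% interval of 1.30 to 1.98. Among all tested probes, 87.5% had a lower mean. SIN4 had the highest mean of the 9 genes, and it was the highest of the tail genes on each of the 4 arrays.

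RGR1 was at 0.61, 0.42, 0.41 and 0.49 on the 4 arrays. The values lay close together, and only 4.00% of the tested probes varied less between arrays. The mean was 0.48 ± 0.09 (SD, n = 4, limma adjusted p = 0.0205), which stands for a ratio of 1.39 with a 95% interval of 1.14 to 1.71. Rgr1 and Sin4 are neighbours in the complex, and the ratio of SIN4 exceeded that of RGR1 on all 4 arrays, by 0.20 ± 0.17 (SD, n = 4).

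The activator-binding group of the tail stayed nearer to 0. GAL11 was at 0.24, 0.43, 0.28 and 0.21, above 0 on every array and highest on array 2. Its mean was 0.29 ± 0.10 (SD, n = 4, limma adjusted p = 0.101), and the 95% interval of -0.0014 to 0.58 just reached 0. PGD1 was at 0.52, 0.28, 0.19 and 0.30, again above 0 on every array, with array 1 highest. Its mean was 0.32 ± 0.14 (SD, n = 4, limma adjusted p = 0.0817). Neither gene was called, although both varied little between arrays, less than all but 4.34% and 11.2% of the tested probes respectively.

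MED2 was the tail gene whose values fell on both sides of 0. Arrays 1 and 2 gave log2 ratios of -0.27 and -0.21, and arrays 3 and 4 gave 0.32 and 0.52, so that the sign was not shared. The mean was 0.09 ± 0.39 (SD, n = 4, limma adjusted p = 0.697), with a 95% interval of -0.32 to 0.50. Within the activator-binding group, PGD1 exceeded MED2 on 2 of the 4 arrays and GAL11 exceeded MED2 on the same number, and the mean differences of 0.23 and 0.20 were smaller than their SD of 0.49 and 0.45. MED2 therefore could not be placed apart from GAL11 or PGD1 at this number of arrays.

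In the kinase module, SSN3 had log2 ratios of -0.25, -0.76, -1.44 and -0.68. The kinase gene was below 0 throughout, but by very different amounts, from array 1 nearest to 0 to array 3 beyond 2-fold. The mean was -0.78 ± 0.49 (SD, n = 4, limma adjusted p = 0.0200), which stands for a ratio of 0.582 with a 95% interval of 0.420 to 0.806. It was the lowest mean of the 9 genes, with 12.0% of all tested probes lower still. Its interval was the only one among the 9 to reach beyond 2-fold.

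SSN2 was at -0.82, -0.29, -0.67 and -0.69. The gene was below 0 on every array, with array 2 well above the other 3. Its mean was -0.62 ± 0.23 (SD, n = 4, limma adjusted p = 0.0133), which stands for a ratio of 0.652 with a 95% interval of 0.519 to 0.821. SSN3 and SSN2 did not differ beyond their spread, since SSN2 exceeded SSN3 on 2 arrays and the mean difference was 0.16 ± 0.59 (SD, n = 4).

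SSN8, the cyclin partner of the kinase, was at 0.38, 0.11, -0.23 and 0.07, above 0 on 3 arrays and below it on array 3. Its mean was 0.08 ± 0.25 (SD, n = 4, limma adjusted p = 0.669), with a 95% interval of -0.26 to 0.42. The ratio of SSN8 exceeded that of SSN3 on every array, by 0.63, 0.87, 1.21 and 0.75. The kinase and cyclin ratios thus differed by 0.86 ± 0.25 (SD, n = 4), and both had their lowest value on array 3. This pair was compared after the values had been seen. Its difference and those of the other pairs of members are given as descriptions.

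SRB8 was at 0.31, 0.25, 0.31 and 0.79. It was above 0 on every array, and array 4 stood far above the other 3. The mean was 0.42 ± 0.25 (SD, n = 4, limma adjusted p = 0.0557), which stands for a ratio of 1.34 with a 95% interval of 1.05 to 1.69, and the gene fell short of a call. SRB8 and SSN2 lay on opposite sides of 0 on every array, and the ratio of SRB8 exceeded that of SSN2 by 1.03 ± 0.39 (SD, n = 4).

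**Figure D1:**
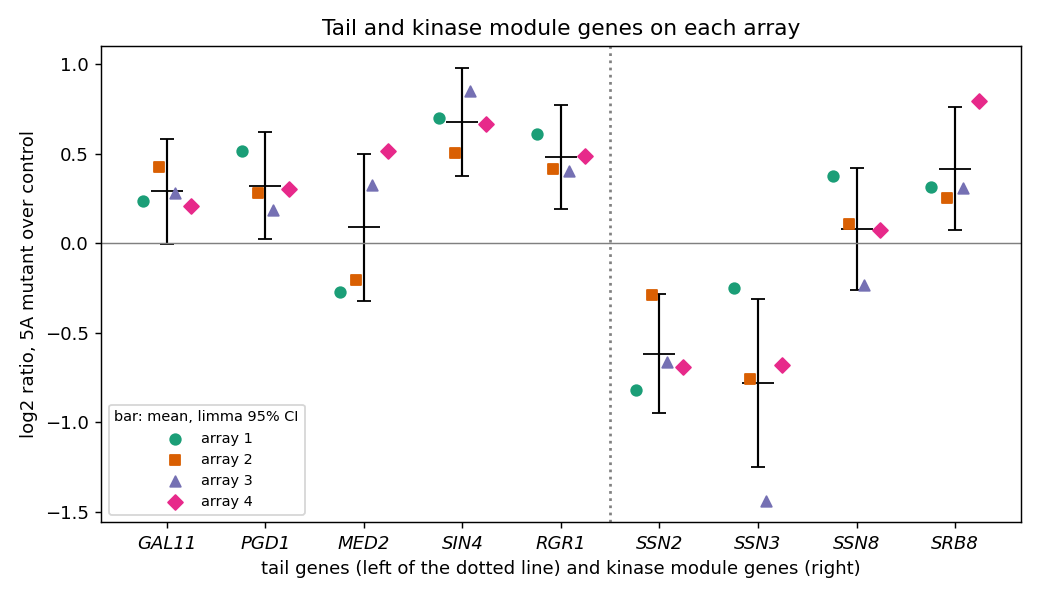
Log2 ratio of the 5A mutant over the control (y axis) for the 5 tail and 4 kinase module genes (x axis), with 1 symbol per array and a black bar for the mean and limma 95% interval. SIN4 and RGR1 lie above 0 and SSN2 and SSN3 below 0 on all 4 arrays, whereas the values of MED2 and SSN8 fall on both sides of 0.

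The plot of the 9 genes by array shows 7 genes with the same sign on all 4 arrays, 5 above 0 and 2 below it. Over the probes with 4 values the same sign was seen for 54.8%, with 26.8% above 0 and 28.1% below 0 throughout. The SD between arrays was under the median of all tested probes for 7 of the 9 genes, and SSN3 and MED2 were the exceptions. In order of the mean, from lowest to highest, the genes were SSN3, SSN2, SSN8, MED2, GAL11, PGD1, SRB8, RGR1 and SIN4. Of the 8 neighbouring pairs in this order, 6 differed by less than the SD of their difference. The steps beyond it were those from SSN2 to SSN8, at 0.70 ± 0.37, and from RGR1 to SIN4 (SD, n = 4). The order was set by these same means, so the sign of each mean step was fixed beforehand and the steps are descriptions. The lowest gene was SSN2 on arrays 1 and 4 and SSN3 on arrays 2 and 3. The highest was SIN4 on arrays 1 to 3 and SRB8 on array 4.

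The calls depended on which arrays were used. SIN4 stayed called with any array left out (limma adjusted p between 0.00384 and 0.0377), and its mean then lay between 0.62 and 0.74. RGR1 was called without array 2 (limma adjusted p = 0.0160) and lost its call when array 1, 3 or 4 was omitted, with a limma adjusted p of 0.0987, 0.0593 or 0.0896. SSN2 followed the same pattern, with a call without array 2 (limma adjusted p = 0.00395) and none without array 1, 3 or 4. SSN3 kept its call when array 1 or 2 was omitted, with a limma adjusted p of 0.0270 or 0.0284, but not when array 3 or 4 was, and its mean without array 3 was -0.56. SRB8 gained a call without array 2 (limma adjusted p = 0.0377) and was farthest from it without array 4, where its mean was 0.29 (limma adjusted p = 0.247). GAL11, PGD1, MED2 and SSN8 were not called with any array left out. Over all probes the share called was 51.3% without array 2 and between 23.5% and 24.5% without array 1, 3 or 4. In every case SIN4, RGR1, GAL11, PGD1 and SRB8 kept a positive mean and SSN2 and SSN3 a negative mean.

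**Figure D2:**
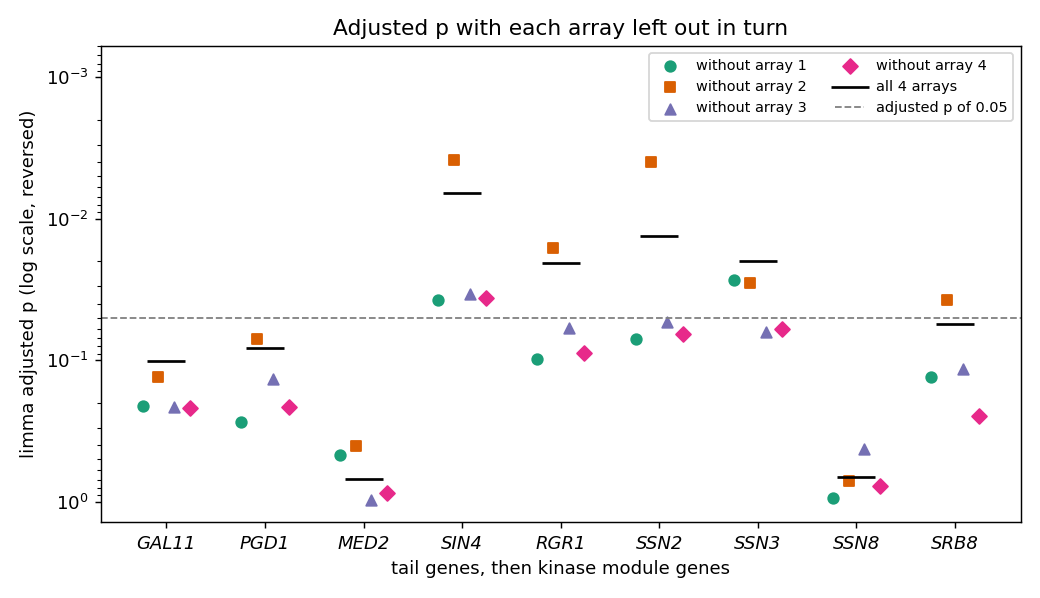
Limma adjusted p (y axis, log scale with small values at the top) of each tail and kinase module gene (x axis) with all 4 arrays, shown as a black bar, and with 1 array left out, shown by symbol. All symbols of SIN4 lie above the dashed line at 0.05, whereas RGR1, SSN2 and SSN3 have symbols on both sides of it.

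The 9 genes lie on 7 chromosomes, and none is a gene of chromosome XI, where the median over probes was 0.89. The medians of their own chromosomes lay between -0.05 and 0.0085, and after each probe was set against its chromosome's median SIN4 was at 0.72, RGR1 at 0.51, SSN2 at -0.60 and SSN3 at -0.73. To see whether a gene stood apart from its surroundings, it was set beside the 5 measured genes on each side of it in RefSeq gene order. SIN4 was above all 10 of its neighbours, which ranged from -0.79 to 0.40 with a median of -0.12. RGR1 was above 9 of 10, exceeded by RPL10, a large ribosomal subunit protein gene, at 0.81 (limma adjusted p = 0.0577). SSN3 was below 9 of 10. The exception was NOP4, a nucleolar protein gene of ribosome assembly that is next to SSN3 in this order, at -1.08 (limma adjusted p = 0.00248), and the other 9 neighbours lay between -0.27 and 0.74. SSN2 stood less apart. The median of its neighbours was -0.19, and 3 of 10 were lower still. These were LRS4, a subunit of the monopolin complex, at -1.04, DOT1, the histone H3 lysine methyltransferase, at -0.65 (limma adjusted p = 0.00702), and YDR444W at -0.65 (limma adjusted p = 0.0150). GAL11 exceeded 8 of its 10 neighbours, whose median was -0.18, and PGD1 exceeded 6, whose median was 0.06.

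SRB8 is the member nearest to a chromosome end, with 25 measured genes between it and the end of chromosome III, against 91 or more for the other members. Its neighbours had the highest median of the 9 sets, at 0.26, and 4 of them were above SRB8. All 4 lay on the side of the nearer chromosome end. Among these, TRX3, the mitochondrial thioredoxin gene, was at 1.06 (limma adjusted p = 0.00235) and AHC2, a subunit gene of the ADA histone acetyltransferase complex, at 0.73 (limma adjusted p = 0.00656). TUP1, the corepressor gene on the same side, was at -0.04 (limma adjusted p = 0.855). For SSN8 and MED2, whose means were near 0, the neighbour medians were -0.05 and -0.01. The part of neighbouring genes in the ratio of SRB8 or SSN2 was not tested.

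**Figure D3:**
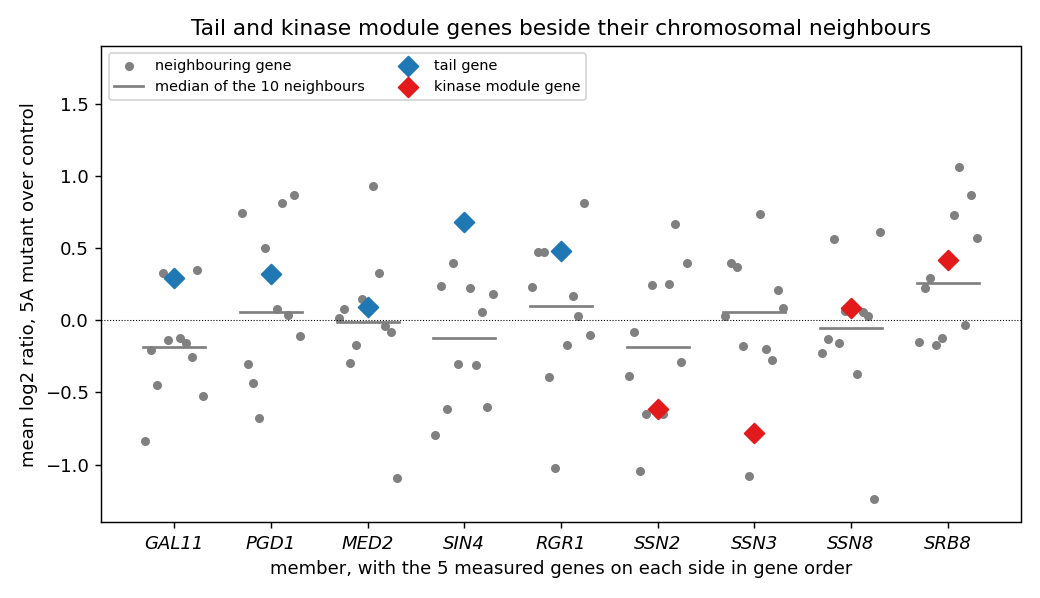
Mean log2 ratio over the arrays (y axis) of each tail or kinase module gene (coloured diamonds) and of the 5 measured genes on each side of it (grey points, in gene order), with a grey line at the median of these 10 neighbours. SIN4 lies above all of its neighbours, SSN3 lies below 9 of 10, and the neighbours of SRB8 have a median of 0.26.

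Values were also at hand for probes named for the ORF numbered next to a member on the opposite strand, where the RefSeq table does not list that ORF. Whether these ORFs overlap the members was not examined, so they are not read as separate neighbouring genes. These were picked after the values of the members had been seen. YOL050C beside GAL11 was at -0.53 ± 0.54 (SD, n = 4, limma adjusted p = 0.0840). YGL024W beside PGD1 was at 0.34 ± 0.37 (SD, n = 4, limma adjusted p = 0.143). YNL235C beside SIN4 was at 0.15 ± 0.65 (SD, n = 4, limma adjusted p = 0.636). YDR442W beside SSN2 averaged 0.03 ± 0.22 (SD, n = 4, limma adjusted p = 0.860). None of the 4 was called, and only the probe beside PGD1 had a mean near that of its member.

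Within Mediator as a whole, 12 of the 25 subunit genes were called (48.0%), 7 higher and 5 lower, against 40.5% of all probes. The head and middle modules, which contact the polymerase and its CTD, gave 8 calls among 16 genes, 5 higher and 3 lower. This count was between 3 and 4 without array 1, 3 or 4, where between 23.5% and 24.5% of all probes were called, and 9 without array 2, where 51.3% were. In the head, SRB2 was at 0.99 ± 0.67, SRB6 at 0.54 ± 0.26 and SRB5 at 0.45 ± 0.11, while SRB4, which encodes the central head subunit Med17, was at -0.85 ± 0.75 (SD, n = 4, limma adjusted p between 0.0189 and 0.0439). In the middle, SOH1 was at 0.55 ± 0.13 and NUT1 at 0.50 ± 0.20, whereas NUT2 was at -0.98 ± 0.15 and MED4 at -0.67 ± 0.21 (SD, n = 4, limma adjusted p between 0.00190 and 0.0257). Only NUT2 and MED4 stayed called with any array left out. SRB5 and SRB6 kept their calls only without array 2, and SRB2 lost its call without array 3. SRB4, at 0.02 on array 1, lost its call without array 3 or 4. SOH1 lost its call without array 1 or 3, and NUT1 without array 1 or 4. The means of the head ranged from -0.85 to 0.99 and those of the middle from -0.98 to 0.55, each with 4 genes on either side of 0, whereas the tail ran from 0.09 to 0.68 and held no gene below 0. With 5 genes in the tail this is a description of these genes, and no test was run of a difference between modules. MED2, the tail gene at 0.09, had array values on both sides of 0, and its mean was -0.0527 without array 4. The called kinase module genes SSN3 and SSN2, at -0.78 and -0.62, lay among the lowest of the complex, together with NUT2, SRB4 and MED4.

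**Figure D4:**
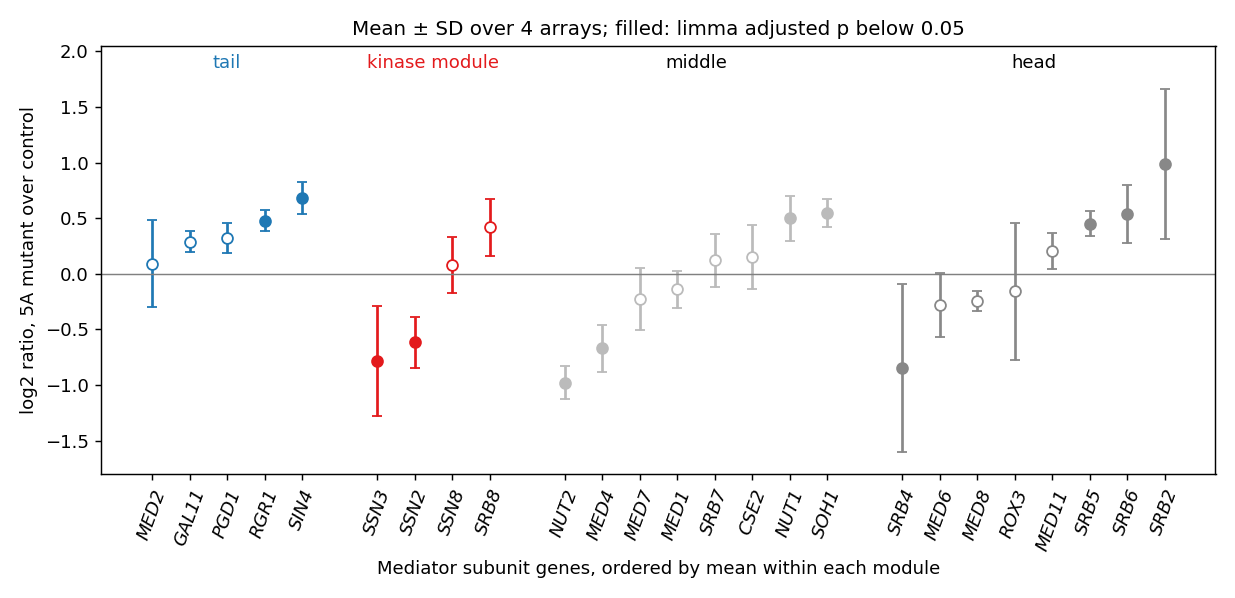
Mean log2 ratio of the 5A mutant over the control (y axis) with the SD over 4 arrays for the 25 Mediator subunit genes (x axis), grouped by module, with filled points for genes that limma called. All 5 tail genes have a mean above 0, with the SD of MED2 crossing 0, and each of the other modules has genes on both sides of 0.

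The genes that work with the tail and the kinase module were looked at in 5 short lists. Their counts stand beside 40.5% of all probes called, 19.8% higher and 20.7% lower. The lists were chosen with earlier results of these data known, so the shares called are descriptions and no enrichment is read from them. Of 7 genes for activators known to bind the tail, 4 were called, 2 higher and 2 lower. GCN4, the activator of amino acid synthesis genes, averaged 1.42 ± 0.43 (SD, n = 4, limma adjusted p = 0.00179). PDR1, an activator of drug efflux genes that binds Gal11, was at 0.50 ± 0.06 (SD, n = 4, limma adjusted p = 0.0171). GAL4, the galactose activator, was at -1.18 ± 0.31 (SD, n = 4, limma adjusted p = 0.00192). PDR3, the relative of PDR1, was at -0.96 ± 0.23 (SD, n = 4, limma adjusted p = 0.00269). The call of PDR1 was lost when array 1, 3 or 4 was omitted, with a limma adjusted p of up to 0.0833. OAF1, HSF1 and MSN2 were at -0.25, 0.34 and 0.26 and were not called. The median of the list was 0.26, with GAL11, the tail gene whose product Pdr1, Pdr3 and Gcn4 bind, at 0.29.

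Of the 10 genes listed as targets of Pdr1 and Pdr3, which act through Gal11, 5 were called as lower (50.0%, against 20.7% of all probes) and none as higher, with a median of -0.53. The efflux pump genes PDR5 and PDR15 were at -2.25 ± 0.63 and -1.77 ± 0.36, YOR1 at -0.61 ± 0.29, the lipid transfer protein gene PDR16 at -0.60 ± 0.28, and PDR3 itself is on this list too (SD, n = 4, limma adjusted p between 0.000683 and 0.0183). PDR16 lies 4 measured genes from SIN4 on chromosome XIV and had a ratio of the opposite sign. When array 3 or 4 was omitted, YOR1 and PDR16 lost their calls. SNQ2, also an efflux pump gene, was at 0.09 and was the only gene of the 10 with a mean above 0. It was not called, and neither were PDR10 at -0.46 and TPO1 at -0.33.

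Of 5 genes for substrates of the Ssn3 kinase, 3 were called, GCN4 higher and GAL4 and STE12 lower. STE12, the activator of mating and filamentation genes, was at -0.80 ± 0.20 (SD, n = 4, limma adjusted p = 0.00447), about the same mean as SSN3. PHD1, a filamentation regulator on chromosome XI, was at 0.65 (limma adjusted p = 0.0771) and at -0.24 after the median of that chromosome was subtracted. Of the 4 galactose genes, which depend on Gal4 and the tail for induction and are repressed in dextrose, GAL7 was at -1.50 ± 0.43 and GAL10 at -1.26 ± 0.24, and GAL1 was at 1.61 ± 0.51 (SD, n = 4, limma adjusted p between 0.00116 and 0.00169). GAL2 ranged from -1.44 to 0.94 over the arrays and was not called. The median of the galactose list was -0.79, although its called genes pointed both ways. Without spot intensities, whether these genes stood above background in dextrose could not be examined.

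The last list holds 4 genes that are derepressed in mutants of the tail or the kinase module. Of these, 3 were called, 1 higher and 2 lower. FLO11, a flocculin gene repressed with the help of the kinase module, was at 1.12 ± 0.11 (SD, n = 4, limma adjusted p = 0.00114). SUC2, the invertase gene whose derepression gave the SSN and RGR1 genes their names, was at -0.9984 ± 0.25 (SD, n = 4, limma adjusted p = 0.00256). INO1, the inositol synthesis gene, averaged -0.9978 ± 0.86 (SD, n = 4, limma adjusted p = 0.0365). Its call held without array 2 and was lost without array 1, 3 or 4. HO, the mating-type endonuclease gene, was at -0.57 (limma adjusted p = 0.0523). Over the 5 lists, which share 4 genes, 15 of 26 genes were called (57.7%), against 40.5% of all probes, with 4 higher and 11 lower. Since the lists were chosen with earlier results known, this share is a description. FLO11 and SUC2 lay on opposite sides of 0. In the same cells SSN2 and SSN3 were lower, SSN8 and SRB8 were not called, and SIN4 and RGR1 were higher. A link between these ratios was not tested.

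**Figure D5:**
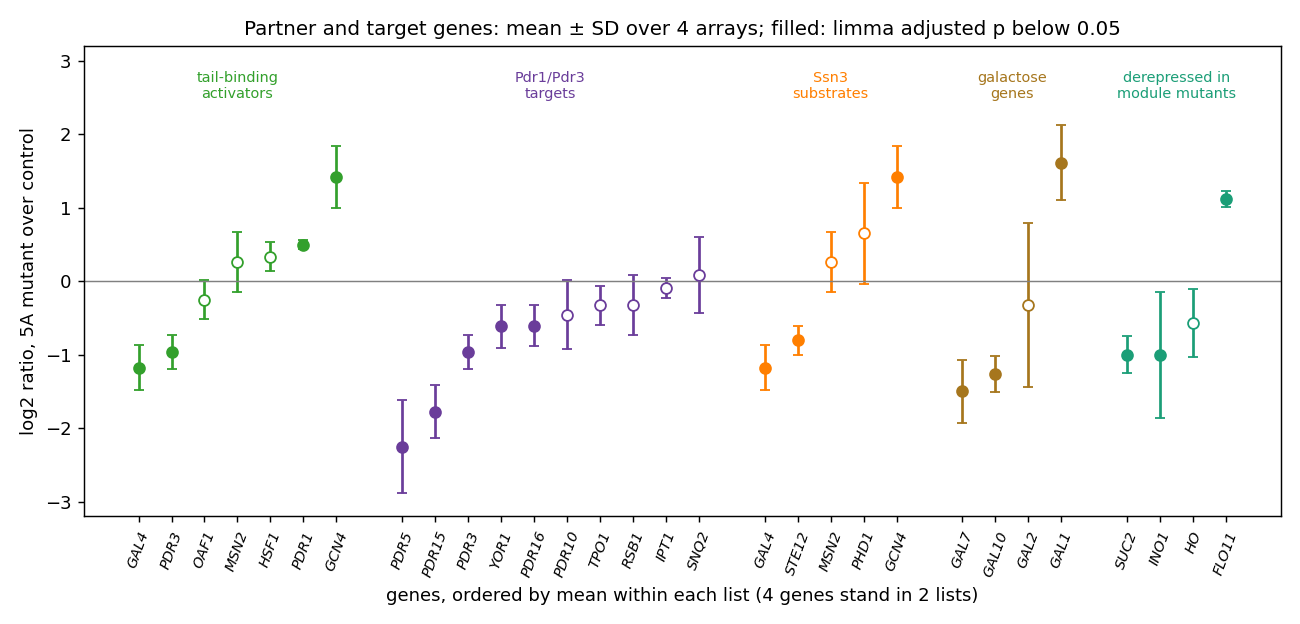
Mean log2 ratio of the 5A mutant over the control (y axis) with the SD over 4 arrays for the genes of the 5 partner and target lists (x axis), with filled points for genes that limma called. All called targets of Pdr1 and Pdr3 lie below 0, and each of the other lists has called genes on both sides of 0.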

How the data were processed

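The authors scanned 4 arrays with 2 channels and used the BASE server for normalization. They deposited log ratios, read here as log2, with a value for 6022 to 6177 of the 6210 probes on an array. The normalization method and background correction are not given in the sources used here. Spot intensities were not analysed here. The table was used as it stood, with no further normalization, and 5724 of the probes matched an ORF of the RefSeq gene table (assembly R64), which supplied symbols and gene order.

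The mean of each probe with a value on at least 2 arrays was fitted in limma 3.58.1 under R 4.3.3 (intercept, eBayes, Benjamini-Hochberg over all 6157 probes). Intervals are limma's 95% intervals. The number of arrays limits the precision. An exact sign-flip test over 4 arrays cannot go below p = 0.125 and was not used. Python 3.11.15 with pandas 2.3.3 and matplotlib 3.10.9 did the rest.

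All 9 members are named. Of the other lists, called genes and up to 3 genes not called are named. Members and lists were chosen with earlier results of these data known. Alternatives were arrays centred on their median, brought to a common spread or weighted, robust eBayes, probes with 4 values, chromosome medians subtracted, medians over arrays, limma treat at 1.2-fold, a 2-fold requirement, and each array left out. The 5 chromosomal neighbours on each side are described with no test.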

Additional observations from a re-analysis of the deposited data

Results flagged for a closer look

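Among 32 sets of 4 array values, those of the 9 members and of 23 called genes of the other lists, 2 had an array far from the others, and chance gives about 1 in 20. SRB8 was at 0.79 on array 4 against 0.25 to 0.31 on the other arrays. PDR15 was at -1.23 on array 2 against -1.99 to -1.91 on the others.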

How the results depend on the processing

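The number of members called was 4. It was 1 with limma treat at 1.2-fold (SIN4), where 22.1% of all probes were called, 0 with a mean of 2-fold or more required, and between 1 and 5 with an array left out. It stayed within 1.5 times of 4 with the arrays centred, at a common spread or weighted, with robust eBayes, with 4 values required and with chromosome medians subtracted. With array weights PGD1 and SRB8 were called too (limma adjusted p = 0.0360 and 0.0143), and the share called over all probes was 54.8%. The number of head and middle genes called was between 3 and 9 with an array left out. The number of partner and target genes called stayed between 11 and 17 of 26 under the alternatives run for it. These did not include limma treat or the 2-fold requirement. It was between 11 and 13 without array 1, 3 or 4, where between 23.5% and 24.5% of all probes were called. With array weights it was 17, where 54.8% of all probes were called. Of these 26 genes, 8 had a mean of 2-fold or more, against 887 of the 6157 tested probes. The lists were chosen with earlier results known, so no enrichment is read from this count. The median of the 9 means was 0.29, with 0.25 under array weights, 0.26 with medians over arrays and between 0.24 and 0.29 with an array left out. Of 99 repeats of the test of a single member, 83 kept the sign and the side of the threshold, 11 lost a call, 3 gained a call and 2 changed sign without being called. The sign changes were those of MED2 at -0.0527 without array 4 and SSN8 at -0.0175 without array 1. With an array left out the mean of MED2 ranged from -0.0527 to 0.211 and that of SSN8 from -0.0175 to 0.186. The cause of these differences was not tested. Each ratio already pairs the strains within an array, and no further replicate block could be fitted. Without spot intensities, signal over background could not be examined.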
